A study of Mus musculus with 12 samples.

Results

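FoxP3 peaks were examined at the genes of 3 transcription factors of antigen receptor signalling, Nfatc1, Rel and Nfkb1, in regulatory T (Treg) cells. Peaks were taken where the summit lay in mm9 chromosome 18 from 80750000 to 80960000 (Nfatc1), chromosome 11 from 23600000 to 23720000 (Rel) or chromosome 3 from 135200000 to 135400000 (Nfkb1). Of 53228 peaks in 6 lists, 53 met this rule, and they joined into 28 of the 24765 regions found in all. The Nfkb1 window held 19 of these regions, the Nfatc1 window 5 and the Rel window 4. How far each window covers its gene in mm9 could not be checked, and a window may reach into neighbouring genes. A gene name given to peaks below therefore stands for its window.

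The study mapped FoxP3 by chromatin immunoprecipitation and sequencing (ChIP-seq) in Treg cells from A384T mice, whose FoxP3 carries the substitution of that name, and from WT mice with wild-type FoxP3, 3 ChIP libraries each. All mice were C57BL/6J and carried a human CD2 reporter at FoxP3 (hCD2), through which CD4+ cells were isolated magnetically from lymph nodes and spleen, without further treatment. The same rabbit polyclonal antibody to FoxP3 was used throughout, and the labels give no age. They do not say whether replicates came from separate mice, so p-values here measure the spread between libraries, which may be technical. Each list was called on its own, so a region without a peak had none past the authors' cutoff, and the lists differ in length from 18147, 6657 and 2050 peaks in A384T replicates 1, 2 and 3 to 20723, 1746 and 3905 in WT replicates 1, 2 and 3. After removal of duplicates the libraries held 17520951 to 25386770 tags. The fewest were in WT replicate 1, which had the longest list, and the most in WT replicate 2, which had the shortest. A384T replicate 1, with the next longest list, held 18255500. Duplicates were 30 and 39% of tags in A384T and WT replicates 1, against 18 to 21% in the other libraries.

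FoxP3 is the forkhead factor that defines Treg cells, and residue changes in its DNA-binding domain occur in the inherited autoimmune disease IPEX. Nfatc1 encodes a calcium-regulated factor of the NFAT family, which calcineurin sends to the nucleus after antigen receptor signals and which can bind DNA together with FoxP3. Rel encodes c-Rel, an NF-kB subunit needed for the induction of FoxP3 in developing Treg cells. Nfkb1 encodes p105, the precursor of the NF-kB subunit p50, which pairs with c-Rel and other subunits.

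For Rel the promoter is shown, as the member for which a sequence of the start was at hand. It is the RefSeq promoter of GRCm38.p6, the 250 bases before the start, chr11:23770970-23771219 on the minus strand, with capitals at matches to the kappa B consensus.
Rel promoter: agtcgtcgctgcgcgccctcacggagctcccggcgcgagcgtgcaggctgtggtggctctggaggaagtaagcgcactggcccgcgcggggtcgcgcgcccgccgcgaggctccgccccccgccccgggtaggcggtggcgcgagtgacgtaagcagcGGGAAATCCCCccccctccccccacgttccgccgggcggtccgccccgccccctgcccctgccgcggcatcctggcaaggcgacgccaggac
The 3 matches to the consensus, counted on both strands, overlap in 1 run of bases, and 7.25% of 32851 promoters of this length hold a match. The NFAT core GGAAA had 1 match, inside that run, against 55.6% of promoters with a match on either strand. The forkhead core TGTTTAC had 0 matches on either strand, and 3.17% of promoters hold it. The sequence belongs to another assembly than the peaks, so whether it lies under a peak was not analysed here.

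Both genotypes had FoxP3 peaks in all 3 windows, though not every library had one in each. A384T replicates 1, 2 and 3 had 15, 7 and 0 peaks in the windows, against 27, 1 and 3 in WT replicates 1, 2 and 3. Replicate 1 was highest in either genotype, and the genotypes overlapped. A384T replicate 3 was the only library with no peak, and 0 of its 2050 peaks has an exact 95% upper limit of 0.180%.

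**Figure D1:**
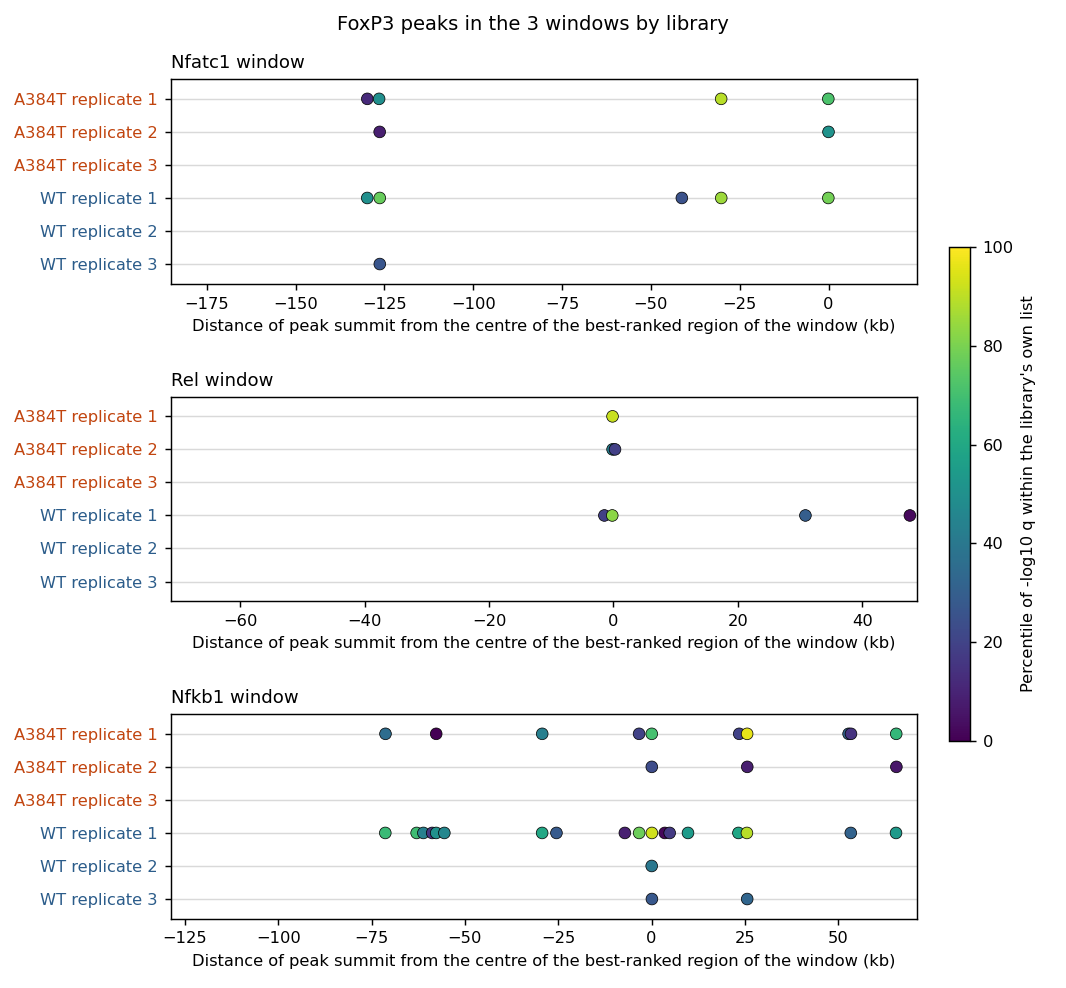
Summits of the 53 peaks, 1 row per library (A384T above WT), against distance in kb from the centre of the region of each window with the highest mean percentile; the colour gives the peak's percentile of -log10 q within its own list. Most points lie in the 2 replicate 1 rows, and the A384T replicate 3 row is empty. Points of different libraries fall together at some positions, while 14 of the 28 regions have a peak in 1 library only.

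Set against list length, no difference between genotypes beyond the spread of the libraries was found. The share was 0.0827, 0.105 and 0% of the list in A384T replicates 1, 2 and 3, and 0.130, 0.0573 and 0.0768% in WT replicates 1, 2 and 3. The means were 0.0626 ± 0.0554% in A384T and 0.0881 ± 0.0378% in WT (SD, n = 3 each), a difference of -0.0255 points that lay within the spread between libraries (two-sided exact permutation test over 20 assignments, p = 0.7). With 3 libraries on each side this test cannot give a p below 0.1. Without A384T replicate 3 the difference was 0.00578, so its sign rests on that library. With only the 49 bp tag libraries (replicates 2 and 3) the difference was -0.0145 points, and between the 51 bp libraries (replicate 1) it was -0.0476 points with no test.

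**Figure D2:**
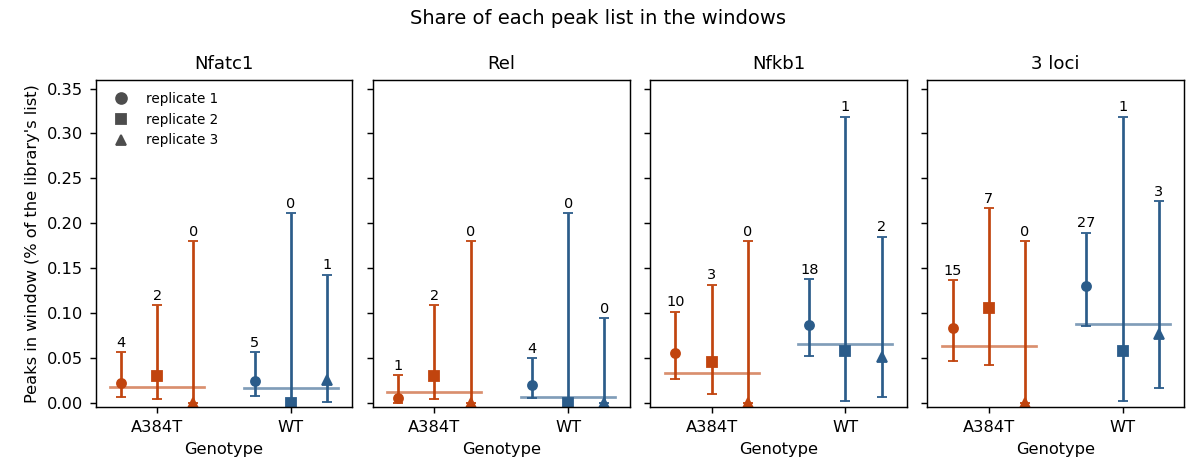
Peaks in each window as a percentage of the library's list, with exact 95% intervals that cover counting error only; the numbers are peak counts and the horizontal lines are group means. The intervals of the A384T and WT libraries overlap in all 4 panels.

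The Nfkb1 window had the most peaks of the 3 windows in every library with a peak in any of them. The windows differ in length, at 200 kb for Nfkb1, 210 kb for Nfatc1 and 120 kb for Rel. The Nfkb1 window held 10, 3 and 0 peaks in A384T replicates 1, 2 and 3, against 18, 1 and 2 in WT replicates 1, 2 and 3. Among 5433 genome tiles of 200 kb that had a peak in any library, 5.02% held at least 10 peaks in A384T replicate 1 and 2.41% held at least 18 in WT replicate 1. At least as many peaks as the window were held by 14.2% of tiles in A384T replicate 2. The same share was 17.9% in WT replicate 2 and 13.3% in WT replicate 3. The window was chosen with earlier results of these data known, so these shares only describe it. The share of the list averaged 0.0334 ± 0.0293% in A384T and 0.0651 ± 0.0191% in WT (SD, n = 3 each), lower in A384T by a difference of -0.0317 points (two-sided exact permutation test, p = 0.2, 0.6 after Benjamini-Hochberg adjustment over 3 loci). The share of A384T replicate 1 was 0.0551% and that of WT replicate 3 was 0.0512%, so the groups overlapped in the full lists. Within replicate numbers A384T was lower in all 3 pairs, at 0.0551, 0.0451 and 0% against 0.0869, 0.0573 and 0.0512% in WT (exact sign-flip test, p = 0.25, the smallest that 3 pairs allow). In replicates 2 this was 3 of 6657 peaks in A384T against 1 of 1746 in WT. In replicates 3 it was 0 of 2050 against 2 of 3905, so the direction in these pairs rests on few peaks. Counting peaks from a -log10 q of 20 upwards, the means were 0.0248% in A384T and 0.0783% in WT, and with the window narrowed by 20 kb they were 0.0229% and 0.0619%; the exact permutation p was 0.1 in both settings, the smallest possible and unadjusted. With the window widened by 50 kb the difference was -0.0116 points (exact permutation p = 0.8). With every list reduced to 1746 peaks it was -0.0191 points. That rests on 1, 0 and 0 peaks in A384T replicates 1, 2 and 3 against 1, 1 and 0 in WT replicates 1, 2 and 3.

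The region with the most libraries was number 11 along the Nfkb1 window, chr3:135328440-135329368, with a peak in 5 of 6 libraries. The authors' fold enrichment over local control there was 18.7 and 8.15 in A384T replicates 1 and 2, against 22.2, 9.76 and 6.72 in WT replicates 1, 2 and 3, and A384T replicate 3 had no peak. The percentile within each list was 70.3 and 22.7 in those A384T libraries, against 92.8, 39.7 and 27.2 in WT. The summits of the 5 libraries lay within 56 bp of each other. Over the genome, 64.4% of the 1494 regions found in these 5 libraries also had a peak in A384T replicate 3.

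Region 16 of Nfkb1, chr3:135354274-135354736, was found in 4 libraries. Its fold was 26.0 and 5.27 in A384T replicates 1 and 2, against 14.7 and 10.02 in WT replicates 1 and 3. In the A384T replicate 1 list it stood at the 96.1 percentile, the highest of any peak in the 3 windows, but at 8.51 in A384T replicate 2, against 89.4 and 32.6 in WT replicates 1 and 3. The genotypes thus overlapped, and the replicates of A384T stood far apart. Region 19, chr3:135394327-135394597, had folds of 19.96 and 7.59 in A384T replicates 1 and 2 and 13.1 in WT replicate 1. The other 16 Nfkb1 regions were seen only in replicate 1 libraries, 6 of them in both genotypes, 9 in WT and 1 in A384T (region 17, chr3:135381412-135381809, fold 12.7).

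A run of 5 regions, numbers 2 to 6 along the Nfkb1 window, lay between 135265728 and 135273497. WT replicate 1 had a peak in each of them, with folds of 19.0, 12.2, 9.35, 11.7 and 14.6 in order of position. A384T replicate 1 had a peak in region 5 alone, with a fold of 5.40, at the 0.0634 percentile of its list and a -log10 q of 10.4, next to the authors' cutoff of 10. No other library had a peak there. This run was picked out after its values were seen.

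**Figure D3:**
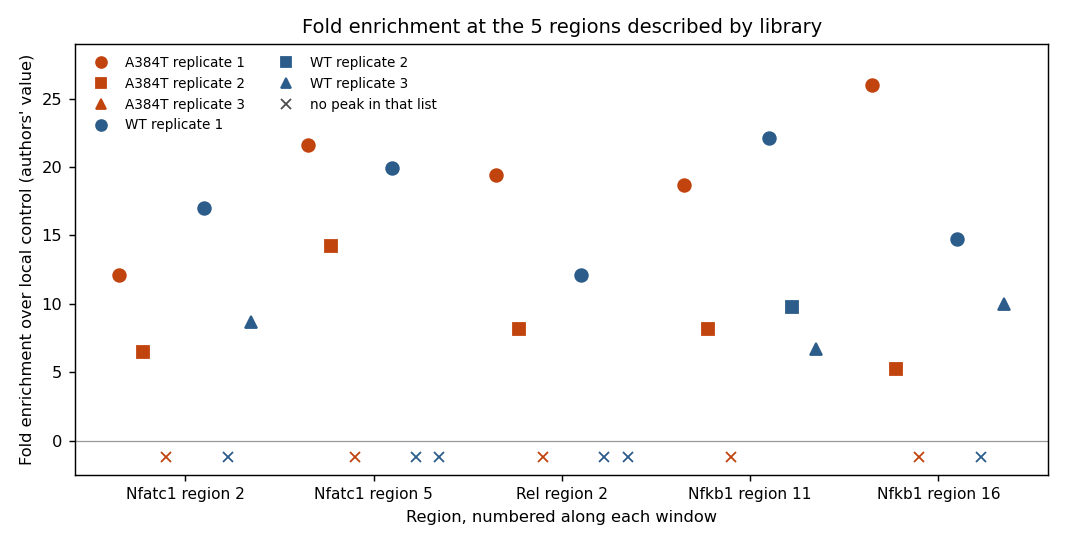
The authors' fold enrichment of the strongest peak (vertical axis) in each library at 5 regions, with A384T left of WT within each region; crosses below 0 mark a list with no peak. A384T replicate 3 has a cross at all 5 regions, and the replicate 1 libraries have the highest fold of their genotype at each.

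Nfatc1 had peaks at 5 positions in its window. There were 4, 2 and 0 peaks in A384T replicates 1, 2 and 3, against 5, 0 and 1 in WT replicates 1, 2 and 3, and the shares of the list were 0.0174 ± 0.0156% in A384T and 0.0166 ± 0.0144% in WT (SD, n = 3 each; two-sided exact permutation test, p = 1). Region 2, chr18:80808606-80809239, was found in 4 libraries, with folds of 12.1 and 6.48 in A384T replicates 1 and 2 and 17.0 and 8.66 in WT replicates 1 and 3. Region 5, chr18:80934997-80935339, had folds of 21.6 and 14.2 in A384T replicates 1 and 2 and 19.9 in WT replicate 1. Its percentiles were 71.5 and 51.2 in A384T and 78.8 in WT. Of 5240 tiles of 210 kb, 35.0% in A384T replicate 1 and 26.4% in replicate 2 held as many peaks as the window or more. In WT replicates 1 and 3 the share of tiles was 26.3 and 32.8%.

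Region 4 of Nfatc1, chr18:80904752-80905159, had the highest percentile of the window in both replicate 1 lists. It stood at 89.1 in A384T and 85.2 in WT, with folds of 17.8 and 17.9, and no other library had a peak there. In the GRCm38.p6 gene table the next coding gene beyond Nfatc1 on the side of higher coordinates is Atp9b, a phospholipid-transporting ATPase gene, and which of the 2 genes region 5 lies in was not analysed here.

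Rel had 1 region seen in more than 1 library. Region 2 of its window, chr11:23670837-23671610, had folds of 19.4 and 8.14 in A384T replicates 1 and 2, against 12.1 in WT replicate 1, and A384T replicate 2 had a second, weaker peak in it. The percentiles were 91.5 and 42.8 in these A384T libraries and 82.5 in WT replicate 1. A384T replicate 3 and WT replicates 2 and 3 had no peak in the window. The other 3 Rel regions had a peak in WT replicate 1 alone, with folds of 9.66, 12.1 and 8.49. Of 7202 tiles of 120 kb, 92.9% in A384T replicate 1 and 18.9% in replicate 2 held as many peaks as the window or more. In WT replicate 1 the share of tiles was 23.6%. The share of the list was 0.0119 ± 0.0160% in A384T and 0.00643 ± 0.0111% in WT (SD, n = 3 each; two-sided exact permutation test, p = 0.7, adjusted p = 1). With the window widened by 50 kb the means were 0.0505% in A384T and 0.0145% in WT (exact permutation p = 0.2).

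Most regions of the 3 windows came from the long replicate 1 lists, as they did over the genome. Of the 28 regions, 22 (78.6%, exact 95% interval 59.0 to 91.7%) had peaks only in replicate 1 libraries, where 71.1% of all regions did. The intervals over regions cover counting error only and take neighbouring regions as independent. A peak in both genotypes was found in 14 regions (50%, 30.6 to 69.4%), against 56.0% of all regions. Leaving out WT replicate 1 brought the number to 3, and leaving out A384T replicate 1 to 6. The share over all regions was not computed for these settings. The 2 replicate 1 libraries and no other shared 8 of the 28 regions, where 29.3% of all regions were of this kind. At least 4 libraries had a peak in 3 of the 28 regions, where 14.0% of all regions had this, and no region had one in all 6, where 3.88% had.

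No region of the windows was repeatedly found in one genotype and missing from the other. The count of regions in at least 2 A384T and 0 WT libraries was 0, against 0.763% of all regions, and the reverse count was also 0, against 0.872%. Regions in all 3 A384T and 0 WT libraries make up 0.186% of all regions, and the windows held 0 of them. These classes are so rare over all regions that a count of 0 among 28 does not set the windows apart. The 13 regions with a peak in WT alone (46.4%, 27.5 to 66.1%, against 26.8% of all regions) each rested on WT replicate 1. The 1 region with a peak in A384T alone (17.2% of all regions) rested on A384T replicate 1. The interval treats regions as independent, which neighbours in 3 chosen windows decided by 1 library need not be. It is therefore no test against the share of all regions. Without WT replicate 1 there were 3 regions in at least 2 A384T and 0 WT libraries. That setting leaves WT only its short lists, of 1746 and 3905 peaks. The share of all regions in this class was not computed for it, so the 0.763% above is no measure for these 3.

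**Figure D4:**
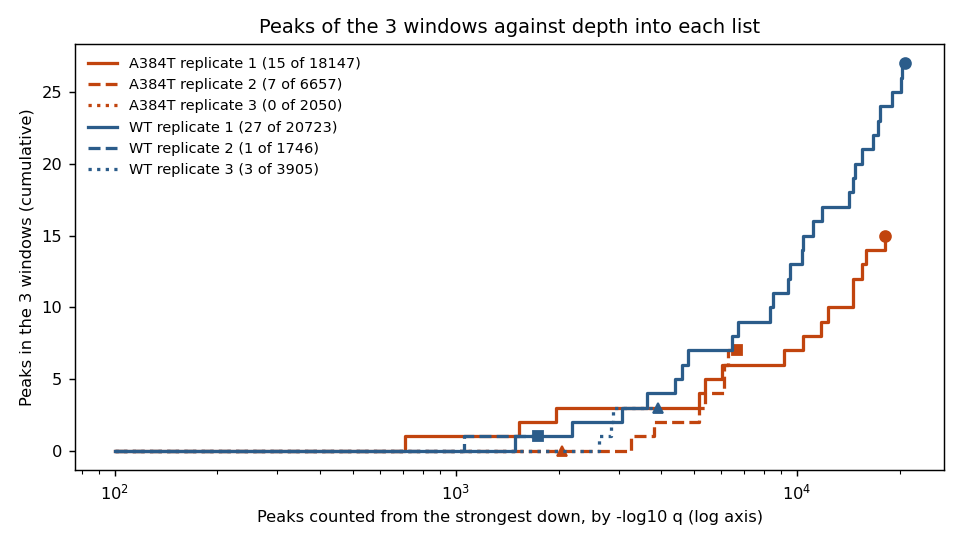
Cumulative number of peaks in the 3 windows (vertical axis) against the number of peaks counted from the strongest by -log10 q (log axis), 1 line per library. No list has a window peak among its first 500, and the WT replicate 1 line ends at 27 above the A384T replicate 1 line at 15.

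None of the 3 windows had a peak among the 500 strongest of any list. The windows held 0 to 0.130% of the full lists, so a count of 0 among 500 does not set them apart. With every list reduced to 1746 peaks, A384T replicates 1, 2 and 3 had 2, 0 and 0 peaks in the windows and WT replicates 1, 2 and 3 had 1, 1 and 0. At the 2050 peaks of A384T replicate 3, which had 0, A384T replicates 1 and 2 had 3 and 0, and WT replicates 1 and 3 had 1 and 0. At 6657 peaks A384T replicates 1 and 2 had 6 and 7, and WT replicate 1 had 8. The 2 replicate 1 lists parted further down: at 18147 peaks each, A384T replicate 1 had 15 and WT replicate 1 had 24, of which 10 and 16 were at Nfkb1. With 1 library per genotype at that depth there is no test.

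The place of each gene's strongest peak was compared as its percentile within the list, with absent peaks set to 0. Percentiles and absences depend on list length, which differs between replicates, so their spread is in part that of the lists. With every list reduced to 1746 peaks the Nfatc1 values were all 0 and the Nfkb1 difference was 1.71. For Nfkb1 the percentile was 96.1, 22.7 and 0 in A384T replicates 1, 2 and 3, against 92.8, 39.7 and 32.6 in WT replicates 1, 2 and 3 (difference of means -15.4; two-sided exact permutation test, p = 0.6). For Nfatc1 it was 89.1, 51.2 and 0 in A384T and 85.2, 0 and 26.2 in WT (difference 9.66, exact permutation p = 0.8). For Rel it was 91.5, 42.8 and 0 in A384T and 82.5, 0 and 0 in WT (difference 17.3, exact permutation p = 0.7). Adjusted over the 3 loci each p was 0.8, and the libraries of the 2 genotypes overlapped for all 3 genes.

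In the 14 regions with a peak in both replicate 1 lists, A384T stood lower in most, as it did over the genome. The WT list was the longer, at 20723 peaks against 18147, and percentiles depend on list length. The percentile was higher in A384T in 4 of 14, namely Nfatc1 region 4, Rel region 2 and Nfkb1 regions 16 and 19, against 43.6% of the 13567 such regions over the genome. The median difference was -19.7 points in these 14 and -2.82 over the genome. At Nfkb1 region 10, chr3:135325385-135325783, the percentile was 19.8 in A384T and 77.7 in WT. This is 1 library per genotype and has no replicate check. The summits of the 2 libraries lay 4 to 206 bp apart in the 14 regions, with a median of 37.5 bp, against 22 bp over the genome.

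**Figure D5:**
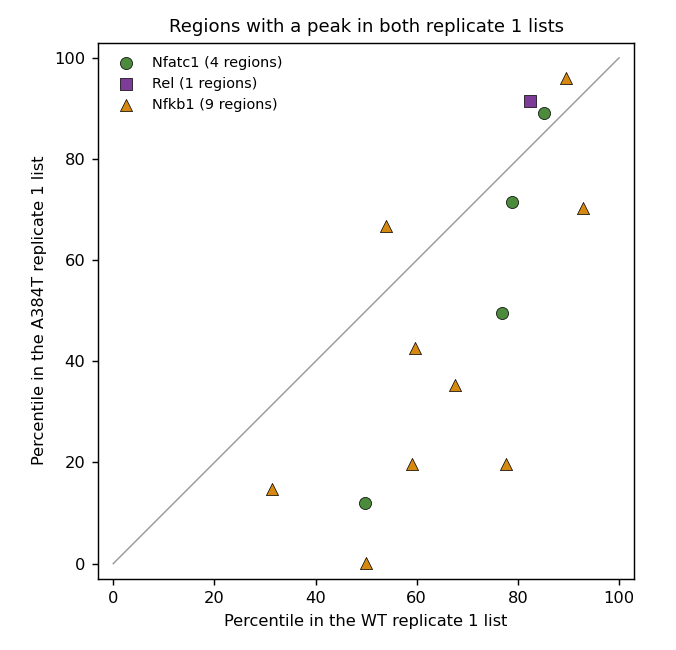
Percentile of -log10 q in the A384T replicate 1 list (vertical axis) against that in the WT replicate 1 list (horizontal axis) for the 14 regions with a peak in both; the line marks equal percentiles. Of the points, 4 lie above the line, and the widest gaps below it are at Nfkb1.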

How the data were processed

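FoxP3 ChIP-seq was made from about 10000000 Treg cells per reaction, fixed for 30 min in 1% formaldehyde, with 4 µg of antibody, per the labels' protocols. Bowtie2, MACS2 and the build mm9 are named in the submitters' processing notes. Peaks were called per library against 1 control with MACS 2.1.0.20140616 at a q-value cutoff of 1e-10 and 1 tag per position, per the file headers. The deposited lists give pileup (a signal value), -log10 p-value and q-value, fold enrichment (a ratio to local control) and other fields such as peak length. Tags were 51 bp in replicate 1 and 49 bp in replicates 2 and 3 of both genotypes, per the file headers. The 6 input libraries were not analysed here.

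Peaks on standard chromosomes were joined across libraries at 1 bp of overlap. A percentile is the rank of a peak by -log10 q within its own list. Shares of lists and percentiles were compared by two-sided exact permutation tests over 6 libraries, and intervals are exact Clopper-Pearson at 95%. The alternatives are those of the closing section. The region joining and counting were tested on simulated data. Regions described by library had a peak in at least 4 libraries, in at least 2 of one genotype and 0 of the other, or the highest mean percentile of their window; regions outside this rule were picked with their values in view. The genes and windows were chosen with earlier results of these data known. Same-numbered libraries deviated together from their genotype means over 962 regions shared by all libraries (r = 0.435, 0.123 and 0.374 for numbers 1, 2 and 3), so the numbers were also used as a block. Other genes of the NFAT and NF-kB pathways were not analysed here, since peaks carry no gene names and the gene table is of GRCm38.p6. No region of the windows was in the set shared by all libraries, so the planned ranking inside that set had no member. Python 3.11.15 was used with scipy 1.17.1, pandas 2.3.3, numpy 2.4.6 and matplotlib 3.10.9.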

Additional observations from a re-analysis of the deposited data

How the results depend on the processing

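Of 160 alternatives to 11 results, 132 kept the direction or stayed within 1.5 times the count, 17 reversed the direction and 11 moved a count or brought a difference to 0; the 2 restrictions to 1 tag length were chosen after seeing the data. No exact permutation test passed 0.05 in any setting, and with 3 libraries a side none can. With lists of 1746 peaks the share differences over the 3 loci and at Nfatc1 and the percentile difference at Nfatc1 were 0, that at Nfkb1 was 1.71, regions in both genotypes numbered 0, and 1 region had peaks in at least 2 WT and 0 A384T libraries. With windows widened by 50 kb the share difference was 0.0252 points over the 3 loci, 0.0360 at Rel (exact permutation p = 0.2) and -0.0116 at Nfkb1, the percentile difference at Nfkb1 9.44, and 2 regions had peaks in at least 2 A384T and 0 WT libraries. At a -log10 q of at least 20 the share difference was -0.00880 at Nfatc1 and -0.0535 at Nfkb1, and with windows narrowed by 20 kb it was -0.0390 at Nfkb1, both of these at Nfkb1 with an exact permutation p of 0.1. Among 49 bp libraries 3 regions were in both genotypes; between the 51 bp libraries the share differences at Nfatc1 and Rel were -0.00209 and -0.0138 and the percentile difference at Nfkb1 was 3.29. Leaving out 1 library at a time gave share differences of -0.0468 to 0.00578 over the 3 loci, -0.00751 to 0.00946 at Nfatc1, -0.00368 to 0.0119 at Rel and -0.0426 to -0.0150 at Nfkb1. It gave percentile differences of -11.5 to 33.7 at Nfatc1, -6.09 to 44.8 at Rel and -43.7 to 4.38 at Nfkb1. Regions in both genotypes ranged from 3 to 14, regions in all libraries from 0 to 1, and regions in at least 2 A384T and 0 WT libraries from 0 to 3. Shares over all regions were not computed for the alternatives, so these counts only describe the windows. The sign turned for Nfatc1 shares without A384T replicate 1 (-0.00156), A384T replicate 2 (-0.00556) or WT replicate 2 (-0.00751), and for Rel shares without A384T replicate 2 (-0.00368). For the percentile it turned without A384T replicate 1 at Nfatc1 (-11.5) and Rel (-6.09), without WT replicate 2 at Nfatc1 (-8.90), and at Nfkb1 without A384T replicate 3 (4.38) or WT replicate 1 (3.46). The cause was not tested. Part of the 132 could not change. Blocking by replicate number keeps all differences, and stricter cutoffs cannot raise 0 regions in all libraries. The exact sign-flip p of the share was 0.75 over the 3 loci and 0.25 at Nfkb1, the smallest that 3 pairs allow. Pairing could change no call. The short lists limit what absence can show: 0 of 1746 peaks has an exact 95% upper limit of 0.211%.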

Other observations

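Further FoxP3 peaks lay just outside the windows. In the 50 kb to either side there were 10 regions, 7 beside Rel and 3 beside Nfkb1, and none beside Nfatc1. WT replicate 1 had a peak in 8 of the 10, WT replicates 2 and 3 in 0, and A384T replicates 1, 2 and 3 in 6, 4 and 2. The regions named here were chosen after their values were seen.

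At 36.6 kb beyond the Rel window, chr11:23756427-23756754 had a peak in A384T replicates 1, 2 and 3 and in none of the WT lists. That class holds 0.186% of all regions, but this region was picked by its values. WT replicates 2 and 3 had no peak in any of the 10 regions beside the windows, so their lack of one here says little. The fold was 26.3, 13.2 and 9.39 in A384T replicates 1, 2 and 3, at percentiles of 85.7, 50.3 and 16.3 of the lists, with summits within 34 bp. Closer to the window, chr11:23748995-23749202 had folds of 18.9 and 14.2 in A384T replicates 1 and 2 and no peak in WT. Beside it, chr11:23746454-23746770 had folds of 17.0 and 6.64 in A384T replicates 1 and 2 and 10.7 in WT replicate 1. In the GRCm38.p6 gene table the next coding genes on the 2 sides of Rel are Pus10, a pseudouridine synthase gene, and Papolg, a poly(A) polymerase gene; which gene these regions lie in was not analysed here.

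On the lower side of the Nfkb1 window, 21.6 kb away, chr3:135178266-135178543 had a peak in A384T replicates 1, 2 and 3 and in WT replicate 1. The fold was 24.3, 12.8 and 10.7 in A384T replicates 1, 2 and 3, at percentiles of 85.3, 64.3 and 33.0, against 12.5 in WT replicate 1 at a percentile of 36.02. Manba, which encodes a lysosomal mannosidase, is the next coding gene to Nfkb1 on that side in the GRCm38.p6 table. No test was made of these regions, which were found by their values.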
